A study of Mus musculus with 10 samples.

Results

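Unmutated IgG clonotypes are heavy-chain rearrangements that carry an IgG constant gene and a V segment identical to the germline V gene to which the deposited files aligned it. They were examined in the deep cervical lymph nodes, which drain the brain and meninges, of C57BL/6 wild-type mice with GL261 tumours, a mouse glioma cell line injected into the brain. One group had been given an antibody against CTLA-4, an inhibitory receptor of T cells (5 mice), and the other an isotype control IgG (5 mice). Nodes were taken on day 20 after implantation, and bulk receptor libraries were made from total RNA of all cells of each mouse. Dose, schedule, sex and age were not stated by the labels. The libraries hold receptor transcripts alone, so the tissue label could not be set against markers of other cells, and more cells of a clone cannot be told apart from more transcript per cell.

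The members were chosen by measured values. Productive IgG sequences were merged within a mouse by V gene, J gene and junction, the stretch from the conserved cysteine codon to the conserved tryptophan codon. A rearrangement found in several mice was given to the mouse with most counts. Its most counted sequence then had to align over 200 or more V bases with 0 mismatches. This left 1661 unmutated clonotypes of 3947 IgG clonotypes, and of 313384 productive heavy-chain sequences in the series. Anti-CTLA-4 mice held 1058 of them and isotype mice 603. Just outside the limit stood 842 IgG clonotypes with 1 V mismatch, and another 466 had 2. Members had a median deposited count of 7, and those with 1 mismatch a median of 1. The shortest V alignment among members was 212 bases, and the longest one under the limit 196 bases.

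B cells diversify their receptors in germinal centres, where the enzyme AID deaminates cytosines in V genes and selection follows. The same enzyme exchanges the constant gene, which turns an IgM receptor into IgG, and that exchange can take place before or outside a germinal centre. IgG transcripts without V mutations are therefore known from early and extrafollicular plasmablasts as well as from cells that have only just entered a germinal centre. Among mouse subclasses, IgG2c is favoured by interferon-gamma, IgG1 by interleukin-4 and IgG2b by TGF-beta, and IgG3 is typical of responses to polysaccharides.

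The junctions of the clonotypes that lead each mouse, of the next largest of each group and of those with most IgM transcript are shown here. The leader of a mouse held 20.5% to 40.0% of its unmutated IgG counts. Each was read from the deposited files in the 5′ to 3′ direction, and capitals mark bases that lie between the V, D and J alignments.
Anti-CTLA-4 mouse 1, IGHV1-50 with IGHJ2: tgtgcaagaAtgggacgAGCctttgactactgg
Anti-CTLA-4 mouse 1, IGHV1-5 with IGHJ1: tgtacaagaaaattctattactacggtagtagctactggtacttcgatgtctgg
Anti-CTLA-4 mouse 1, IGHV1-74 with IGHJ3: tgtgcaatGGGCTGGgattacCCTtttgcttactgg
Anti-CTLA-4 mouse 1, IGHV1-55 with IGHJ2: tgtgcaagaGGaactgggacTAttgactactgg
Anti-CTLA-4 mouse 2, IGHV1-78 with IGHJ3: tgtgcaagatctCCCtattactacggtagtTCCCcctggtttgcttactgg
Anti-CTLA-4 mouse 3, IGHV1-49 with IGHJ1: tgtgcaagGGAgtacttcgatgtctgg
Anti-CTLA-4 mouse 4, IGHV3-8 with IGHJ1: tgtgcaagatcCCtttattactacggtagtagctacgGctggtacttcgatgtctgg
Anti-CTLA-4 mouse 5, IGHV1-9 with IGHJ3: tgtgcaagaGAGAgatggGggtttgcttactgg
Isotype mouse 1, IGHV1-50 with IGHJ2: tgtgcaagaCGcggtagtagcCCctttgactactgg
Isotype mouse 2, IGHV2-9 with IGHJ1: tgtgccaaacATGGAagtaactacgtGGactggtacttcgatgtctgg
Isotype mouse 2, IGHV14-2 with IGHJ2: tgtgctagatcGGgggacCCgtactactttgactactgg
Isotype mouse 3, IGHV10-1 with IGHJ1: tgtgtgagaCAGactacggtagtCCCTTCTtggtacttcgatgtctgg
Isotype mouse 4, IGHV9-4 with IGHJ4: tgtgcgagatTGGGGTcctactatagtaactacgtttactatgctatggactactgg
Isotype mouse 5, IGHV1-15 with IGHJ2: tgtacTATGGGggttacgacAGGctactgg

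These junctions are unlike one another. They run over 27 to 57 nucleotides, or 7 to 17 codons of CDR3, the part between the conserved cysteine and tryptophan. The IGHV1-5 junction of anti-CTLA-4 mouse 1 had 0 unaligned bases, so that the deposited V, D and J alignments met without a base between them. Mismatches within the D alignment were not counted. The IGHV1-74 junction of the same mouse and the IGHV10-1 junction of isotype mouse 3 had 10 each. Both mice 1 were led by IGHV1-50 with IGHJ2, but with different D genes and different junctions.

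The libraries shared part of these rearrangements. Of the unmutated clonotypes, 183 were found in several mice, among them 23 in 3 mice, 4 in 4 mice and 2 in 5 mice. Of the 220 copies in another mouse, 219 lay in a mouse of the same group. Most pairs had neighbouring replicate numbers. Anti-CTLA-4 mouse 3 owned 44 clonotypes also found in mouse 4, mouse 1 owned 30 also found in mouse 2, and mouse 2 owned 28 also found in mouse 3. Isotype mouse 3 owned 37 also found in mouse 4. Shared clonotypes had a median count of 477 in their owner, with a median of 20.5 in the other mouse, whereas clonotypes of 1 mouse had a median of 4. The owner had at least 10 times the count of each other mouse for 129 of the 183. Sharing moved with size, at 75 of 97 unmutated clonotypes with 1000 or more counts and 3 of 434 with a single count. Of the 2286 mutated clonotypes, 57 were found in several mice, with a median count of 117. How these copies arose was not tested, so results are given with the shared rearrangements and without them where that matters. Giving them to their owners took 75.3% of the IgG counts of isotype mouse 4 and 29.3% of those of anti-CTLA-4 mouse 4, and no more than 6.66% from any other mouse.

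Unmutated clonotypes were a sizeable part of IgG in every mouse. They made up 37.6%, 41.6%, 50.4%, 42.3% and 44.0% of the IgG clonotypes of anti-CTLA-4 mice 1 to 5, against 42.4%, 41.1%, 43.1%, 36.1% and 26.4% in isotype mice 1 to 5. Anti-CTLA-4 mouse 3 was highest and isotype mouse 5 lowest, and the groups overlapped. The means were 43.2% ± 4.67 in anti-CTLA-4 mice and 37.8% ± 6.95 in isotype mice (SD, n = 5 each). The difference of 5.33 percentage points did not pass the exact permutation test over the 252 reassignments of the mice (two-sided p = 0.19, Benjamini-Hochberg adjusted p = 0.321 over 9 group comparisons). It was 2.47 points without isotype mouse 5 and 11.0 points with a minimum count of 2 (exact permutation, adjusted p = 0.56 and 0.157). The smallest p that 5 mice against 5 can give is 0.00794.

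Weighted by deposited counts, the same clonotypes held most IgG transcript in 9 of the 10 mice. They took 93.7%, 94.7%, 93.5%, 63.8% and 95.5% of IgG counts in anti-CTLA-4 mice 1 to 5, and 71.1%, 79.0%, 83.6%, 29.0% and 69.6% in isotype mice 1 to 5. In each group mouse 4 stood far below the others, and the remaining 4 anti-CTLA-4 mice lay above every isotype mouse. The means were 88.3% ± 13.7 in anti-CTLA-4 mice and 66.5% ± 21.7 in isotype mice (SD, n = 5 each; exact permutation p = 0.0714, adjusted p = 0.321). With the shared rearrangements left out, the difference of 21.8 percentage points became 28.4 (exact permutation, adjusted p = 0.143), and without isotype mouse 4 it was 12.4 (exact permutation, adjusted p = 0.482). With every IgG sequence of a clonotype required to be free of V mismatch, unmutated clonotypes held only 3.97% of IgG counts in anti-CTLA-4 mice and 3.04% in isotype mice, a difference of 0.935 points (exact permutation, adjusted p = 0.952). Clonotypes with many sequences meet that requirement less easily, so these low shares are partly set by it. As a share of all productive heavy-chain counts, unmutated IgG ranged from 4.47% to 74.5% in anti-CTLA-4 mice, with a median of 39.4%, and from 0.799% to 28.8% in isotype mice, with a median of 15.9%. That share was not tested. Counts given to another mouse were left out of the unmutated part but kept in the heavy-chain total. The lowest values, those of the mice 4, are affected most, as 75.3% of IgG counts were given away in isotype mouse 4. In anti-CTLA-4 mouse 4 it was 29.3%.

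**Figure D1:**
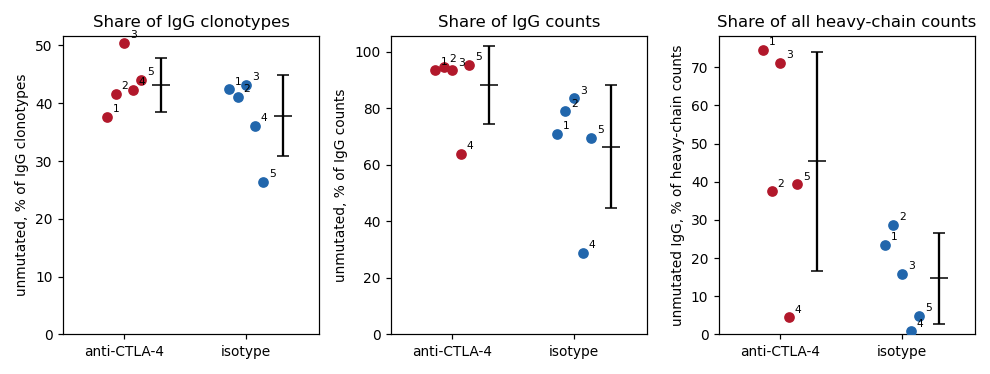
Unmutated IgG as a percent of IgG clonotypes, of IgG counts and of all productive heavy-chain counts (vertical axes, %), with 1 point per mouse numbered by replicate and the mean ± SD of 5 mice beside each group. By counts, 4 anti-CTLA-4 mice sit between 93.5% and 95.5% of IgG counts, above every isotype mouse, while mouse 4 is the lowest of each group. Counts given to another mouse are left out of unmutated IgG but kept in all heavy-chain counts.

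Clone sizes were very uneven. In each mouse, 20.5% to 40.0% of the unmutated IgG counts lay in the leading clonotype, and 62.6% to 98.0% in the 10 largest. At the other end, 26.3% ± 2.67 of the unmutated clonotypes (SD, n = 10) had a count of 1. In anti-CTLA-4 mice 1 to 5 the leading counts were 104092, 27064, 47047, 2183 and 27082. In isotype mice 1 to 5 they were 16291, 18580, 9958, 583 and 3089. Counts of 1000 or more were reached by 15, 20, 27, 2 and 8 unmutated clonotypes in anti-CTLA-4 mice 1 to 5, against 7, 6, 10, 0 and 2 in isotype mice 1 to 5. The 3 mice with the smallest leaders, anti-CTLA-4 mouse 4 and isotype mice 4 and 5, were also those with the fewest IgG counts, at 18848, 24025 and 11093. Among those 3 the order was reversed, as isotype mouse 5 had the fewest IgG counts and the largest leader. In the other mice the leading counts followed the order of IgG counts, except in anti-CTLA-4 mice 2 and 5. The former had 105785 IgG counts and the latter 95763, with leaders of 27064 and 27082. Numbers of clonotypes of 1000 or more followed depth less closely. Anti-CTLA-4 mouse 1, with 288241 IgG counts, had 15, fewer than the 20 of anti-CTLA-4 mouse 2. IgG counts averaged 148337 in anti-CTLA-4 mice and 54710 in isotype mice. The part of depth in these numbers was not tested.

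The mean log10 count of unmutated clonotypes was 1.08, 1.15, 1.19, 0.973 and 1.11 in anti-CTLA-4 mice 1 to 5, and 1.00, 1.07, 0.872, 0.832 and 0.915 in isotype mice 1 to 5. Of the 5 anti-CTLA-4 mice, 4 exceeded every isotype mouse. The group means were 1.10 ± 0.0824 and 0.939 ± 0.0984 (SD, n = 5 each), anti-CTLA-4 mice first. The unadjusted exact permutation p was 0.0317 and the adjusted p 0.286, so the difference of 0.161 did not pass. With every IgG sequence required to be free of V mismatch it was 0.0752 (exact permutation, adjusted p = 0.702).

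**Figure D2:**
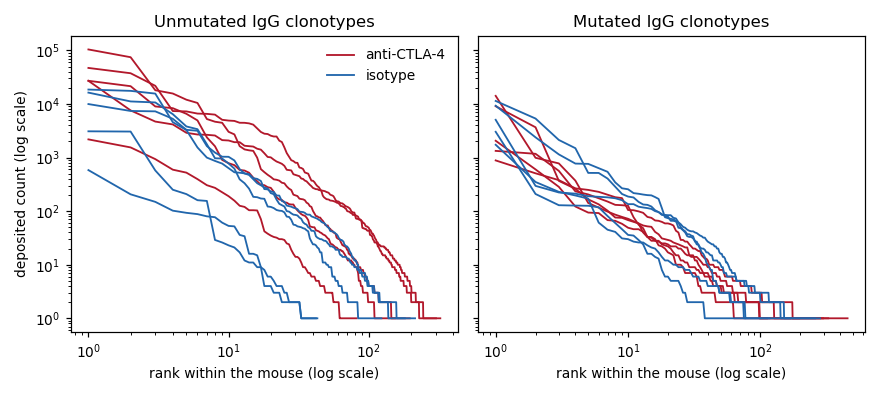
Deposited count of each IgG clonotype (vertical, log scale) against its rank within the mouse (horizontal, log scale), 1 line per mouse, for unmutated clonotypes on the left and mutated ones on the right. The largest unmutated clonotype reaches 104092 counts in an anti-CTLA-4 mouse.

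The clonotypes at the top were named by rank. In anti-CTLA-4 mouse 1 the IGHV1-50 clonotype held 104092 counts, 38.5% of the unmutated IgG counts of that mouse. These lay in 284 distinct sequences, of which the most counted, free of V mismatch, held 53.0%. The share of the other sequences that was free of V mismatch was not counted. The clonotype was mainly IgG2c, with 59873 counts, beside 38985 of IgG2b, 3491 of IgG3 and 1714 of IgG1, and it had only 362 IgM and IgD counts. The IGHV1-5 clonotype of the same mouse followed with 74589 counts and was mainly IgG3, with 37838 counts. Both were found in 5 mice, at no more than 3180 and 1729 counts elsewhere.

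In anti-CTLA-4 mouse 3 the IGHV1-49 clonotype had 47047 counts, of which 25328 were IgG2c, and a CDR3 of 7 codons. The leader of anti-CTLA-4 mouse 2, IGHV1-78 with 27064 counts, was IgG1 in 25607 of them and had 0 IgM or IgD counts. The leader of anti-CTLA-4 mouse 5, IGHV1-9 with 27082 counts, was IgG2c in 19200. Anti-CTLA-4 mouse 4 was led by an IGHV3-8 clonotype of only 2183 counts, 1150 of them IgG2c, with 704 IgM counts beside them. The leaders of anti-CTLA-4 mice 1, 3, 4 and 5 were thus mainly IgG2c, and that of mouse 2 was the exception.

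Among isotype mice, the IGHV2-9 leader of mouse 2 had 18580 counts, of which 15506 were IgG2b. The IGHV14-2 clonotype of the same mouse had 17567 counts and was mainly IgG2c, with 9555. Isotype mouse 1 was led by IGHV1-50 with 16291 IgG counts, and this clonotype also had 8030 IgM counts. The IGHV10-1 leader of isotype mouse 3 had 9958 counts, 6822 of them IgG1. Its most counted sequence, free of V mismatch, held just 19.0% of the 9958. This clonotype was also found in another mouse with 5403 counts. The leader of isotype mouse 5, IGHV1-15, had 3089 counts and 0 IgM or IgD counts, and that of isotype mouse 4, IGHV9-4, had 583.

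The subclass of a clonotype was taken as the one with most of its counts. Calls of IgG2a and IgG2c were pooled, and the pool is named IgG2c throughout. IgG2b was the most frequent main subclass with 623 unmutated clonotypes, followed by IgG2c with 469, IgG1 with 339 and IgG3 with 170, while 60 had none because of a tie or calls that name several subclasses. Median counts were 14 for IgG2c, 10 for IgG1, 5 for IgG2b and 3 for IgG3. Counts in all 4 subclasses were found in 71 of the 97 unmutated clonotypes with 1000 or more counts, in 52 of 227 with 100 to under 1000 and in 4 of 427 with 10 to under 100. A clonotype with few counts can show few subclasses, so these numbers moved with count. Of 13835 IgG sequences, 868 carried a call naming 2 subclasses, and whether the spread over subclasses within a clone came from switching or from the calls was not tested.

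IgG1 made up 5.29%, 56.7%, 13.5%, 7.32% and 10.1% of the unmutated clonotypes of anti-CTLA-4 mice 1 to 5, against 19.5%, 8.05%, 19.9%, 19.0% and 14.3% in isotype mice 1 to 5. One mouse, anti-CTLA-4 mouse 2, carried the mean of its group. The means were 18.6% ± 21.5 and 16.2% ± 5.07 (SD, n = 5 each; exact permutation p = 0.976, adjusted p = 0.976). Without that mouse the difference turned to -7.08 percentage points (exact permutation, adjusted p = 0.167).

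IgG2c made up 38.1%, 13.1%, 37.5%, 31.7% and 39.9% in anti-CTLA-4 mice 1 to 5, and 22.9%, 37.4%, 28.2%, 14.3% and 16.7% in isotype mice 1 to 5. In 3 anti-CTLA-4 mice the share exceeded that of every isotype mouse, and anti-CTLA-4 mouse 2 was the lowest of all 10. The difference in means, 32.1% ± 11.0 in anti-CTLA-4 mice against 23.9% ± 9.29 in isotype mice (SD, n = 5 each), did not pass (exact permutation p = 0.214, adjusted p = 0.321). IgG2b averaged 38.9% ± 9.47 in anti-CTLA-4 mice and 47.5% ± 6.79 in isotype mice (exact permutation p = 0.119, adjusted p = 0.321), and IgG3 10.4% ± 4.37 and 12.5% ± 3.16 (exact permutation p = 0.405, adjusted p = 0.52). By counts, anti-CTLA-4 mouse 2 was again apart, with 80.9% of unmutated IgG counts in IgG1 against 1.46% to 11.7% in the other 4 anti-CTLA-4 mice and 2.42% to 51.3% in isotype mice.

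**Figure D3:**
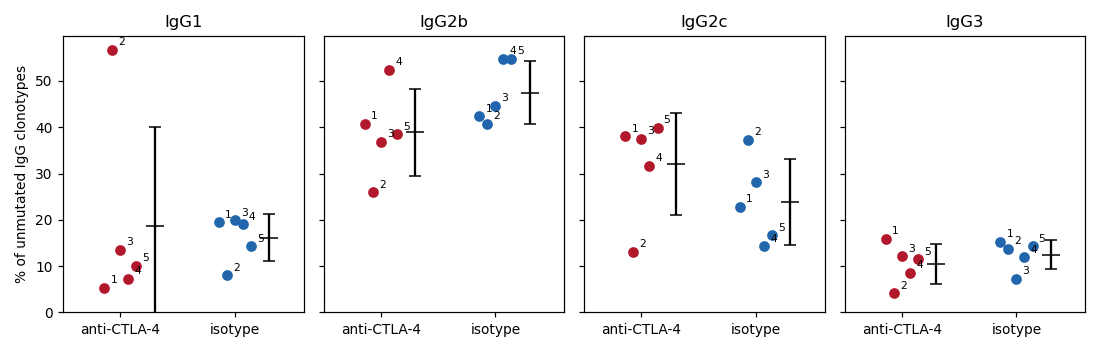
Percent of the unmutated IgG clonotypes of a mouse whose main subclass was IgG1, IgG2b, IgG2c or IgG3 (vertical axis, %), with 1 point per mouse numbered by replicate and the mean ± SD of 5 mice beside each group. Anti-CTLA-4 mouse 2 lies at 56.7% for IgG1, and the groups overlap in every subclass.

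Set against mutated IgG of the same mouse, the subclass mix did not pass a test. Within mice, the mean difference in share, unmutated minus mutated, was 1.21 percentage points for IgG1, -3.08 for IgG2b, 0.76 for IgG2c and 1.12 for IgG3 (exact sign-flip permutation, adjusted p of 0.5 to 0.691 over 8 comparisons, n = 10). Anti-CTLA-4 mouse 2 had a high IgG1 share in both kinds, 56.7% of unmutated and 50.8% of mutated clonotypes.

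Relatives with an IgM constant gene were frequent. A copy was the same rearrangement in the same mouse, identical in V gene, J gene and junction, but with an IgM or IgD constant gene. It existed for 592 of the 1661 unmutated clonotypes, 590 of them with IgM and 31 with IgD, and the most counted IgM sequence was itself without V mismatch in 490 of the 590. The share with a copy was 35.7%, 41.4%, 41.7%, 25.6% and 33.8% in anti-CTLA-4 mice 1 to 5, and 35.8%, 38.1%, 29.4%, 9.30% and 21.4% in isotype mice 1 to 5. Among mutated clonotypes it was 9.09% to 14.7% in anti-CTLA-4 mice and reached no more than 13.5% in isotype mice. In 10 of 10 mice the unmutated share was the higher one, with means of 31.2% ± 10.1 for unmutated and 8.94% ± 4.44 for mutated clonotypes (SD, n = 10). The difference of 22.3 percentage points passed (exact sign-flip permutation p = 0.00195, the smallest that 10 mice can give, adjusted p = 0.00781). Its size depended on the definition of unmutated, at 7.96 points with every IgG sequence required to be free of V mismatch and 14.9 with clonotypes richer in IgM and IgD than IgG left out (exact sign-flip permutation, adjusted p = 0.00781 and 0.0156). A copy had to match the junction exactly, so a changed base in the junction is enough to lose it. In 146 mutated clonotypes all V mismatches lay inside the junction. The direction of the difference is thus partly set by the definitions, and the size of that part was not tested.

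Copies were then counted by clone size. Of unmutated clonotypes with a single count, 20.7% had a copy, against 6.63% of mutated ones with a single count. From 2 to under 10 counts the shares were 35.9% and 13.3%, from 10 to under 100 counts 32.8% and 15.1%, and from 100 to under 1000 counts 50.7% and 20.5%, unmutated first. At 1000 or more counts, 76 of 97 unmutated clonotypes and 7 of 16 mutated ones had a copy. The unmutated share was thus above the mutated one in each of these 5 size ranges, which were not tested one by one. Those with a copy had a median of 16 IgG counts and of 11 IgM and IgD counts, and those without one a median of 4 IgG counts.

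For 247 unmutated clonotypes the IgM and IgD counts exceeded the IgG counts. The most IgM among the members stood in IGHV1-74 of anti-CTLA-4 mouse 1, with 9259 IgM beside 18050 IgG counts, then in IGHV1-50 of isotype mouse 1 and in IGHV1-55 of anti-CTLA-4 mouse 1, which had 6684 IgM beside 15673 IgG counts. Copies also carried other classes, with IgA in 80 and IgE in 79 unmutated clonotypes (4.82% and 4.76%). Among mutated clonotypes these numbers were 68 and 25 (2.97% and 1.09%), and the difference was not tested. Between groups, the share with an IgM or IgD copy averaged 35.6% ± 6.59 in anti-CTLA-4 mice and 26.8% ± 11.7 in isotype mice, which did not pass (SD, n = 5 each; exact permutation p = 0.206, adjusted p = 0.321).

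Size differed between the kinds as well when the most counted sequence decided the call. The mean log10 count of unmutated clonotypes exceeded that of mutated clonotypes in 10 of 10 mice, at 1.02 ± 0.121 against 0.456 ± 0.118 (SD, n = 10; difference 0.564, exact sign-flip permutation p = 0.00195, adjusted p = 0.00781). A single count was held by 24.5% to 29.2% of unmutated clonotypes in anti-CTLA-4 mice and 23.8% to 32.5% in isotype mice. Among mutated clonotypes these ranges were 44.6% to 67.0% and 35.0% to 55.7%. Read the other way, unmutated clonotypes formed 25.8% of the 1685 IgG clonotypes with a single count and 85.8% of the 113 with 1000 or more.

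This size difference depended on the definition of unmutated. The most counted sequence decided the call, and 559 of the unmutated clonotypes held other sequences with V mismatches. With every IgG sequence of a clonotype required to be free of mismatch, 1102 clonotypes stayed unmutated and the difference turned to -0.181 (unmutated minus mutated; exact sign-flip permutation, adjusted p = 0.00781). This requirement is harder to meet for a clonotype with many sequences, so the turn of sign is partly set by the definition. The size of that part was not tested. With the shared rearrangements left out the difference was 0.428 and with lineages in place of clonotypes 0.292 (exact sign-flip permutation, adjusted p = 0.00521 and 0.026).

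Within a mouse, clonotypes that shared V gene, J gene and length of the junction were put in 1 lineage at 90% nucleotide identity or more. Of 1872 IgG lineages, 1192 held an unmutated clonotype, and 279 held both unmutated and mutated ones. The largest lineage had 66 clonotypes, 11 of them unmutated, around the IGHV1-5 clonotype of anti-CTLA-4 mouse 1. Among unmutated clonotypes, 26.6% had under 10% of the count of the leader of their lineage, against 61.5% of mutated ones, so part of the small clonotypes lay beside a much larger relative. Whether sequencing errors contributed to these small relatives was not tested.

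The J segment gave a measure of mismatch that the choice of members did not use. Unmutated clonotypes had 0.836 ± 0.142 J mismatches per 100 nucleotides and mutated ones 1.32 ± 0.472 (SD, n = 10). The unmutated value was lower in 9 of 10 mice (difference -0.481, exact sign-flip permutation p = 0.00391, adjusted p = 0.0104). In anti-CTLA-4 mice 1 to 5 the unmutated values were 0.892, 0.857, 0.960, 0.616 and 0.855, and in isotype mice 1 to 5 they were 0.724, 1.00, 1.03, 0.775 and 0.654. The exception was isotype mouse 3, with 1.03 for unmutated and 1.02 for mutated clonotypes. Isotype mouse 5 had 2.57 for mutated clonotypes, the highest value.

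Most of these mismatches lie in the junction, where V, D and J bases are joined and a mismatch need not be a mutation. Over bases after the junction alone, the rates were 0.115 ± 0.0665 for unmutated and 0.262 ± 0.07 for mutated IgG, and 0.0481 ± 0.00467 for unmutated IgM (SD, n = 10). The difference between unmutated and mutated IgG there was -0.147 (exact sign-flip permutation, adjusted p = 0.0104). Unmutated IgG lay between the other kinds, although its distance from IgM was not tested. With every IgG sequence required to be free of V mismatches, the difference in J mismatches was -0.216 and no longer passed (exact sign-flip permutation, adjusted p = 0.461).

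**Figure D4:**
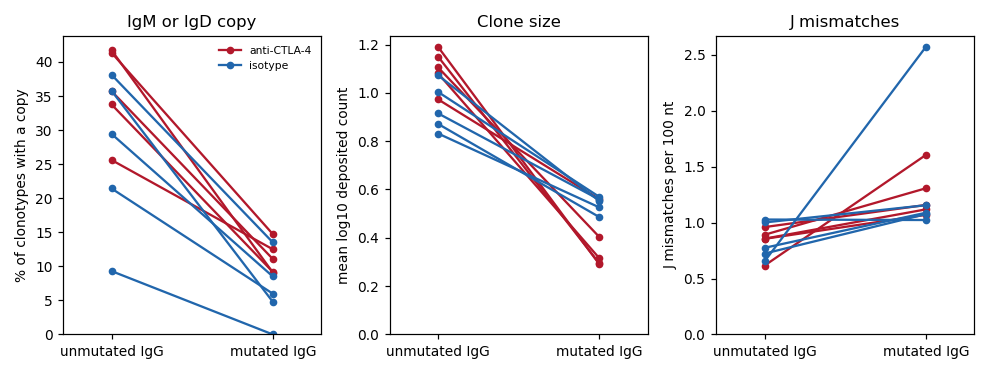
Unmutated IgG (left) and mutated IgG (right) of the same mouse joined by a line, for the percent of clonotypes with an IgM or IgD copy, the mean log10 deposited count and the J mismatches per 100 nucleotides. Copies and counts are higher for unmutated clonotypes in 10 of 10 mice, and J mismatches are lower in 9 of 10. Most J mismatches lie in the junction.

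Unmutated IgM clonotypes, 169266 in all, were set beside them because switching turns IgM into IgG. Unmutated IgG clonotypes were larger in 10 of 10 mice, with a mean log10 count of 1.02 ± 0.121 against 0.155 ± 0.0523 for unmutated IgM (SD, n = 10; exact sign-flip permutation p = 0.00195, adjusted p = 0.0117 over 6 comparisons). The difference of 0.864 was 0.405 with every IgG sequence required to be free of V mismatch, and 1.23 with a minimum count of 2 for IgG (exact sign-flip permutation, adjusted p = 0.0117 in both). The 2 sides were not built alike. Shared IgG rearrangements went to the mouse with most counts, whereas IgM ones were kept in every mouse. The difference passed in all alternatives, also with shared IgG rearrangements kept in every mouse (exact sign-flip permutation, adjusted p of 0.0117 to 0.0234). The CDR3, the most variable loop of the heavy chain, averaged 11.8 ± 0.357 codons in unmutated IgG, 11.6 ± 0.587 in mutated IgG and 11.8 ± 0.0421 in unmutated IgM. Neither the difference from mutated IgG, 0.153 codons, nor that from unmutated IgM, -0.00914 codons, passed (exact sign-flip permutation, adjusted p = 0.667 and 0.949). Single clonotypes spanned 3 to 20 codons with a median of 12. Anti-CTLA-4 mice averaged 11.8 ± 0.188 codons and isotype mice 11.7 ± 0.493 (SD, n = 5 each; exact permutation p = 0.651, adjusted p = 0.732).

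**Figure D5:**
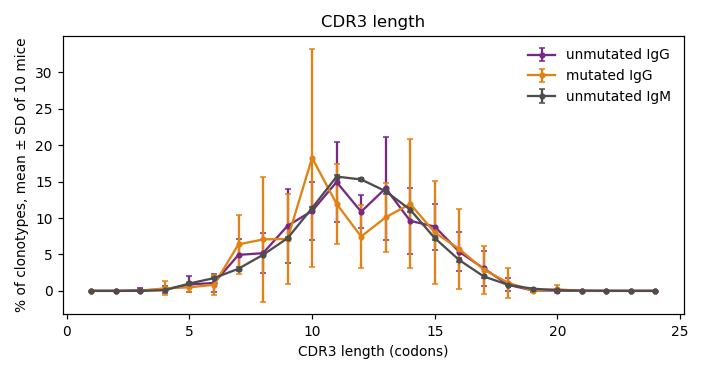
Percent of clonotypes (vertical axis, mean ± SD of 10 mice) with each CDR3 length in codons (horizontal axis) for unmutated IgG, mutated IgG and unmutated IgM. Unmutated IgG and unmutated IgM both average 11.8 codons, and from 4 to 18 codons the bars are narrowest for unmutated IgM.

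Unaligned bases, which include those that terminal transferase adds at the joints, numbered 5.75 ± 0.37 per junction in unmutated IgG, 5.62 ± 0.619 in mutated IgG and 5.98 ± 0.0258 in unmutated IgM (SD, n = 10). Junctions with none, as in the IGHV1-5 clonotype, made up 5.55% ± 2.32, 5.57% ± 3.71 and 3.64% ± 0.102. D genes of the IGHD2 family were called in 37.4% ± 8.62 of unmutated IgG and 37.2% ± 0.42 of unmutated IgM, and those of IGHD1 in 26.1% ± 3.52 and 25.4% ± 0.373. No test was run on these values.

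J genes were compared with those of IgM. IGHJ1 made up 17.0% ± 3.84 of unmutated IgG and 15.6% ± 0.313 of unmutated IgM, IGHJ2 31.7% ± 7.11 and 31.9% ± 0.409, IGHJ3 24.9% ± 4.76 and 24.7% ± 0.468, and IGHJ4 26.4% ± 8.4 and 27.8% ± 0.398 (SD, n = 10). None of the 4 differences passed (exact sign-flip permutation, adjusted p of 0.721 to 0.949). The spread between mice was many times wider in unmutated IgG, which rests on 42 to 324 clonotypes per mouse.

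V genes were broadly used. The 1661 clonotypes carried 86 V names, and 3 of these were joint names of genes that the sequences do not part. The large IGHV1 family made up 58.6% ± 8.35 of unmutated IgG, 62.0% ± 12.9 of mutated IgG and 64.0% ± 0.609 of unmutated IgM (SD, n = 10). The most used V genes by mean share were IGHV9-3 at 5.03% ± 2.76, IGHV1-26 at 4.78% ± 2.45, IGHV3-6 at 3.92% ± 3.7, IGHV8-12 at 3.76% ± 2.96 and IGHV1-50 at 3.7% ± 3.44. In unmutated IgM they made up 3.95%, 4.55%, 4.52%, 3.08% and 2.85%, in the same order. IGHV9-3 had 21, 12, 4, 2 and 8 unmutated clonotypes in anti-CTLA-4 mice 1 to 5, and 3, 12, 13, 3 and 2 in isotype mice 1 to 5. Its numbers were uneven in both groups. IGHV1-50 stood out by counts, with 139773 counts in 60 clonotypes. Of these counts, 104092 lay in the leader of anti-CTLA-4 mouse 1 and 16291 in that of isotype mouse 1.

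Against unmutated IgM of the same mice, edgeR's quasi-likelihood test with the mouse as covariate was run on clonotype numbers of 72 V genes. At an adjusted p of 0.05, 2 were higher in unmutated IgG (2.78% of those tested) and 3 lower (4.17%). IGHV3-8 was higher by 1.88 ± 0.498 on the log2 scale (SE, edgeR adjusted p = 0.0122), at 2.22% ± 2.41 of unmutated IgG and 0.393% of unmutated IgM. It had 4, 1, 5, 6 and 2 clonotypes in anti-CTLA-4 mice 1 to 5, and 7, 2, 1, 1 and 0 in isotype mice 1 to 5, so that 9 of 10 mice held at least 1. IGHV1-49 was higher by 1.70 ± 0.56 (SE, edgeR adjusted p = 0.0357). It had 0, 5, 10, 1 and 1 clonotypes in anti-CTLA-4 mice 1 to 5, and 0, 1, 0, 0 and 0 in isotype mice 1 to 5. With 1 mouse left out at a time, IGHV3-8 failed the test without anti-CTLA-4 mouse 4 (log2 difference 1.56, edgeR adjusted p = 0.065) and IGHV1-49 failed it in 7 of 10 cases. Without anti-CTLA-4 mouse 3, the owner of the IGHV1-49 leader, its log2 difference was 1.01 and did not pass (edgeR adjusted p = 0.3).

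The V genes that were lower were IGHV1-15, the pair IGHV1-62-3 and IGHV1-72, known from responses to the hapten NP, and IGHV1-64. Their log2 differences were -1.54 ± 0.489, -1.47 ± 0.429 and -1.42 ± 0.437 (SE, edgeR adjusted p = 0.031, 0.024 and 0.029). The pair made up 2.31% ± 1.5 of unmutated IgG and 4.25% of unmutated IgM. With 1 mouse left out at a time, the pair passed in all 10 cases (edgeR adjusted p of 0.0147 to 0.0475), while IGHV1-15 and IGHV1-64 each failed in 5 of 10. All of these lower calls turned on the scaling. Without TMM factors the split was 2 higher and 0 lower, and with DESeq2 1 higher and 0 lower. The median over all 72 V genes was -0.46 on the log2 scale with TMM factors, -0.23 without them and 0.06 with DESeq2. Clonotypes of a lineage share a V gene, so they are not independent draws of it.

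Against mutated IgG, 16 V genes could be tested and none passed in either direction (0% higher and 0% lower; edgeR, 1 gene with an unadjusted p under 0.05, DESeq2 0 genes adjusted and 0 unadjusted). IGHV1-82 had the smallest p, with 59 unmutated and 47 mutated clonotypes and a log2 difference of 0.82 ± 0.387 (SE, unmutated over mutated, edgeR adjusted p = 0.649). IGHV1-50 was at 0.54 ± 0.328, IGHV1-5 at -0.71 ± 0.45 and the pair IGHV14-1 and IGHV14-2 at -0.62 ± 0.45, all with an edgeR adjusted p of 0.649. IGHV1-69, named here after its values were seen, had 112 mutated IgG clonotypes in 9 mice but 0 unmutated IgG and 0 unmutated IgM clonotypes. It was called lower with no filter on low counts, and also without isotype mouse 4, where it entered the test.

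IGHV1-69 bears on the definition of unmutated. In 8 V names, 216 positions mismatched the germline in over 50% of the IgM sequences of that name. None of the unmutated IgG clonotypes carried such a name, against 113 mutated ones. With those positions left out, 1718 IgG clonotypes were unmutated in place of 1661, and the difference between groups in the share of IgG clonotypes was 6.73 percentage points, against 5.33 with them (exact permutation, adjusted p = 0.243).

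Between groups, 18 V genes of unmutated IgG could be tested and none passed (0% higher and 0% lower; edgeR, 0 genes with an unadjusted p under 0.05; DESeq2, 0 adjusted and 2 unadjusted). IGHV1-9 had 2, 12, 20, 2 and 13 clonotypes in anti-CTLA-4 mice 1 to 5, and 4, 4, 2, 0 and 0 in isotype mice 1 to 5. Its log2 difference was 1.82 ± 0.929 (SE, anti-CTLA-4 over isotype, edgeR adjusted p = 0.548). IGHV1-82 had 5, 18, 17, 4 and 3 against 2, 5, 5, 0 and 0, a log2 difference of 1.59 ± 0.908 (SE, edgeR adjusted p = 0.548). In the other direction, IGHV1-19 stood at -1.62 ± 0.848 and IGHV1-39 at -0.96 ± 0.784 (SE, edgeR adjusted p = 0.548 and 0.813). For IGHV1-19, 12 of its 27 clonotypes came from isotype mouse 3.

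V genes known from B-1 cells, the lineage that makes natural antibody, gave few clonotypes in unmutated IgG and in unmutated IgM alike. IGHV11-2, known for binding phosphatidylcholine, had 3 unmutated IgG clonotypes and at most 775 counts, with a mean share of 0.228% of unmutated IgG and 0.169% of unmutated IgM. IGHV7-1, the gene of phosphorylcholine-binding antibodies, had 4 and at most 266 counts, at 0.187% and 0.188%. IGHV11-1 and IGHV12-3 had 0 of 1661, which by a floor of 3 allows a share of up to 0.181% each, for counting error only. The IGHV12 family made up 0.102% of unmutated IgM, which lies below that limit. Together these 4 genes gave 7 unmutated and 2 mutated IgG clonotypes.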

How the data were processed

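Receptor libraries of 10 mice were made with a kit that adds UMIs, per the labels' protocols. The authors deposited 1 AIRR table per mouse, with a whole-number count per assembled sequence and its germline alignment, per the file headers. Neither the meaning of a count (read or molecule) nor the aligner, assembler and germline set is given in the sources used here. Total counts were 382184 to 790139 per library. IgG counts were 11093 to 288241, so shares in the smallest mice are coarse, and intervals and limits cover counting error only.

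From these tables, mismatches, unaligned junction bases and copies were counted in Python 3.11.15. Alignment positions were used as deposited by the authors. Sequences with several V genes kept a joint name, and calls naming several IgG genes gave no subclass. IGHG2A and IGHG2C calls were pooled as IgG2c. V names were left as the files give them, and no genome was used. Exact permutation tests took 1 value per mouse, over 252 reassignments between groups and 1024 sign flips within mice, adjusted by Benjamini-Hochberg within families of 9, 8 and 6. V genes were tested with edgeR 4.0.16 (glmQLFit, TMM, filterByExpr) on clonotype numbers, with DESeq2 1.42.0 as an alternative. The default filterByExpr left 0 V genes in the comparisons between groups and with mutated IgG, so a minimum count of 3 and a total of 15 were set there after the data were seen. Tests were checked on simulated data. For edgeR that check held changes of 4- and 8-fold in 1 in 10 V genes, a design reached after earlier ones had been recovered less well, so it says nothing of smaller changes. The SE of a log2 difference was its size over the root of F.

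Named V genes were those past the threshold in each direction (the 5 furthest apart) or the 2 with the smallest p, the 5 most used and 4 B-1 genes. Named clonotypes were the leader of each mouse, the top 3 of each group, the 3 found in most mice and the 3 with most IgM and IgD counts. The members and lists were chosen with earlier results of these data known. The labels number the libraries of a group as replicates, which were taken as separate animals. The tests treat these libraries as independent, and whether the shared rearrangements depart from that was not tested. Alternatives were a minimum count of 2, other treatments of shared rearrangements, V positions mismatched in most IgM left out, stricter definitions of unmutated, 250 aligned V bases, lineages, clonotypes with more IgM and IgD than IgG counts left out, leaving out each mouse, and replicate number as a block. Counting V mismatches before the junction alone and J mismatches after it were added after the data were seen.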

Additional observations from a re-analysis of the deposited data

Results flagged for a closer look

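Of 46 groups of 5 mice, 6 held a mouse far from the other 4 by Dixon's test, which chance does in about 5 of 100 groups. The unmutated share of IgG counts was 63.8% in anti-CTLA-4 mouse 4, where the others lay at 93.5% to 95.5%, and 29.0% in isotype mouse 4, where the others lay at 69.6% to 83.6%. Both libraries gave many clonotypes to another mouse, 65 in the anti-CTLA-4 and 66 in the isotype mouse. Leaving shared rearrangements out cannot show the part of this in the low shares, because both mice lose these counts there as well. Shares of single mice with shared rearrangements kept in every mouse are not given here. IgG1 was the main subclass of 56.7% of unmutated clonotypes in anti-CTLA-4 mouse 2, against 5.29% to 13.5% in the other anti-CTLA-4 mice. The difference in IgG1 share between unmutated and mutated IgG was -14.2 percentage points in isotype mouse 3 and 1.57 to 7.62 in the other isotype mice. The difference in J mismatches per 100 nucleotides was -0.989 in anti-CTLA-4 mouse 4 against -0.416 to -0.198 in the others of its group, and -1.92 in isotype mouse 5 against -0.353 to 0.00442.

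Among 14 within-mouse differences, 2 differed between groups at an unadjusted p under 0.05 and neither passed adjustment. The excess of unmutated over mutated IgG in mean log10 count was 0.727 ± 0.192 in anti-CTLA-4 and 0.401 ± 0.0817 in isotype mice, a difference of 0.327 (SD, n = 5 each; exact permutation p = 0.0238, adjusted p = 0.19 over 8). The excess over unmutated IgM was 0.977 ± 0.0966 and 0.751 ± 0.0849, a difference of 0.226 (SD, n = 5 each; exact permutation p = 0.0159, adjusted p = 0.0952 over 6).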

How the results depend on the processing

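Of 761 repeats over 42 results, 682 kept their direction and side of the threshold. The within-mouse excess in IgM or IgD copies passed in each of them, at 7.96 to 23.7 percentage points, and the excess in log10 count over mutated IgG passed with its sign kept except where every IgG sequence had to be free of mismatch, which turned it to -0.181. In that setting the J mismatch difference was -0.216 and did not pass. The other changes of sign concern differences that passed in no setting, and their cause was not tested. With a minimum count of 2, IgG3 (unmutated minus mutated) was -0.704, CDR3 length (unmutated IgG minus IgM) 0.0156 and IGHJ3 (unmutated IgG minus IgM) -0.807. With shared rearrangements kept in every mouse IGHJ3 was -0.784, and with them left out IgG2c (unmutated minus mutated) was -0.193. With every sequence free of mismatch, IgG1 between groups was -0.945, IgG2c (unmutated minus mutated) -1.75 and IGHJ1 -0.247. With lineages, CDR3 length between groups was -0.0511, IGHJ2 0.843 and IGHJ3 -1.5. With clonotypes richer in IgM and IgD left out, CDR3 length against IgM was 0.0447 and IGHJ3 -0.337. With V mismatches counted before the junction alone, IGHJ2 was 0.000557.

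With 1 mouse left out at a time, IgG1 between groups ran from -7.08 to 5.78, CDR3 length between groups from -0.0565 to 0.273, IgG2c (unmutated minus mutated) from -0.245 to 1.69, CDR3 length against IgM from -0.0705 to 0.0746, IGHJ2 from -1.44 to 0.981 and IGHJ3 from -0.493 to 1.06. V genes above IgM then numbered 0 to 2 and below it 1 to 4, with 0 higher without anti-CTLA-4 mouse 4, and V genes below mutated IgG 0 to 1, the 1 being IGHV1-69 without isotype mouse 4. V genes above IgM numbered 1 with DESeq2, with shared rearrangements left out and with lineages. Those below it numbered 0 with DESeq2 and without TMM factors, and 5 with a minimum count of 2 and with lineages. With a minimum count of 3 per V gene they were 3 and 4. V genes below mutated IgG numbered 1 with no filter.

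Same-numbered mice were not taken as pairs, because their correlations over 12 V genes of unmutated IgG were not all above 0.1. They were 0.282, 0.387 and 0.567 for numbers 2, 3 and 5, each closest to its own number, and -0.134 and -0.292 for numbers 1 and 4. Over 94 V genes of unmutated IgM they ran from -0.174 to 0.427. With the replicate number as a block, exact sign flips of 5 pairs cannot give a p under 0.0625, so those tests could make no call. edgeR with that block called 0 V genes higher and 0 lower, with 0 at an unadjusted p under 0.05. The unmutated share of IgG counts, the IgG2b share and the mean log10 count reached that smallest exact p (adjusted p = 0.188), and the difference in the unmutated share of IgG clonotypes stayed at 5.33 percentage points with an exact adjusted p of 0.338. Differences between groups rest on 42 to 324 unmutated clonotypes per mouse, and depth differed between them, so small ones were not detectable. Over the alternatives, the difference between groups in the share with an IgM or IgD copy ran from 2.76 to 12.8 percentage points, in IgG2c from 5.8 to 12.9, in IgG2b from -12.0 to -3.75 and in IgG3 from -3.42 to -0.492, and none passed.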
